A study of Mus musculus with 9 samples.

Results

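The genes described here encode the protein subunits of the mitochondrial respiratory chain and ATP synthase in mouse alveolar macrophages, which live on the air side of the lung. They were taken by symbol as the protein-coding genes whose names begin with Ndufa, Ndufb, Ndufc, Ndufs, Ndufv, Uqcr, Cox5 to Cox8 or Atp5, with Cyc1, Cycs and every protein-coding gene of the mitochondrial genome, leaving out Ndufa4, Ndufa4l2 and the Ndufaf assembly factors. This gave 93 genes, 80 in the nucleus and 13 in the mitochondrial genome, of which 89 were among the 12003 genes measured (76 nuclear and all 13 mitochondrial). Cox7b2, Cox8b, Cox8c and a second gene identifier that also carries the name Atp5o had no values and were not analysed here. No measured member was at 0 reads in any library (0 members).

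Poly(A) RNA was sequenced from 9 libraries, 3 for each of 3 genotypes. Vhl knockouts, labelled Vhl(flox/flox) / CD11c (cre/+), carried loxP-flanked Vhl alleles and a Cre recombinase driven by the CD11c promoter. Cre controls, Vhl(+/+) / CD11c (cre/+), carried the same Cre with intact Vhl, and floxed controls, Vhl(flox/flox) / CD11c (+/+), carried the floxed alleles without Cre. All mice had a C57BL/6 background, were aged 8 to 12 weeks and were untreated, and each library was 1 pool of lavage cells from 5 to 7 mice of matched age and sex, enriched with beads against CD11c. CD11c is also carried by dendritic cells, and the promoter drives Cre in those cells too. VHL is the part of a ubiquitin ligase that recognises hypoxia-inducible factors (HIF) through their alpha subunits, and its loss stabilises them.

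The respiratory chain passes electrons from NADH through complex I, ubiquinone, complex III and cytochrome c to oxygen at complex IV, and the proton gradient so formed drives ATP synthase. Its subunits come from both genomes: the mitochondrial DNA encodes a small core set, transcribed as long precursors and cut into single mRNAs, and the nucleus encodes the rest. HIF is known to alter the make-up of the chain in other cell types, for example through exchange of complex IV isoforms. Alveolar macrophages rely on lipid catabolism and mitochondria in the steady state.

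Values are normalized reads, which are whole reads scaled to library size with 1 factor per library and no correction for gene length. Means carry the SD over pools, with n = 3 for a genotype and n = 6 for Cre and floxed controls combined. Fold changes are on the log2(value + 1) scale from limma with their standard error, p-values are Benjamini-Hochberg adjusted over all 12003 genes, and a gene was called at an adjusted p under 0.05. Libraries held 18201116 to 25861174 reads, and 1 read was worth 0.0400 to 0.0565 normalized reads. Vhl itself averaged 2.23 ± 0.261 in knockouts and 20.9 ± 3.79 in both controls. All 15 alveolar macrophage markers looked for were measured, with a summed level of 38730 to 51250 in knockouts and 28920 to 34020 in both controls. Most of that sum was Chil3, and the markers moved both ways: 5 were called higher, and Siglecf, Krt79, Mertk and Car4 were called lower (4 of 15). Dendritic cell markers (14 of 14 measured) were all called lower, with sums of 226.5 to 240.9 in knockouts and 352.9 to 542.7 in both controls. Most of the knockout sum was Syngr2, at 169 ± 4.42 in knockouts and 206 ± 13.1 in both controls. Log2 fold changes of the 14 ranged from -2.91 (Fscn1) to -0.28 (Syngr2). Monocyte markers (9 of 9) summed to 287.9 to 304.1 in knockouts and 162.2 to 211 in both controls, with 4 called higher and 2 lower. Lung epithelial markers (8 of 10) summed to 1060 to 1121 in knockouts and 585.7 to 871.9 in both controls, with Krt19 and Cdh1 called higher and Epcam and Sftpa1 lower. Most of that sum was Krt19 (752 ± 48.9 in knockouts, 407 ± 73.0 in both controls) and Cdh1 (263 ± 11.9 and 117 ± 20.5). All other measured markers of this list had lower means in knockouts. Dissociation stress genes (10 of 10) summed to 689.6 to 1313 in knockouts and 543.8 to 991.2 in both controls, with Jun and Junb called higher and Hspa1a and Hspa1b lower. The part of these differences in the results below was not tested. In bulk pools, fewer cells of a type and less RNA per cell cannot be told apart.

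A pair of control libraries stood apart in these genes. Floxed control 3 was below the average of the other floxed controls in 74 of 76 nuclear members, by a median of 0.31 on the log2 scale. It held the lowest value of all 9 libraries in 60 of the 76. The same library was also lower in other short genes: genes of up to 1000 bases of exon outside the set had a median difference of -0.32, and genes over 4000 bases one of 0.04. Floxed control 1 was above the average of the other floxed controls in 13 of 13 mitochondrial genes, by a median of 1.11. In mt-Co3 it was nevertheless below floxed control 3. The summed neutrophil markers of floxed control 1 were the highest of any library, at 459.8. Replicate 1 was also the highest in knockouts (309) and in Cre controls (213.8). The counts below are given with and without floxed controls 1 and 3.

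**Figure D1:**
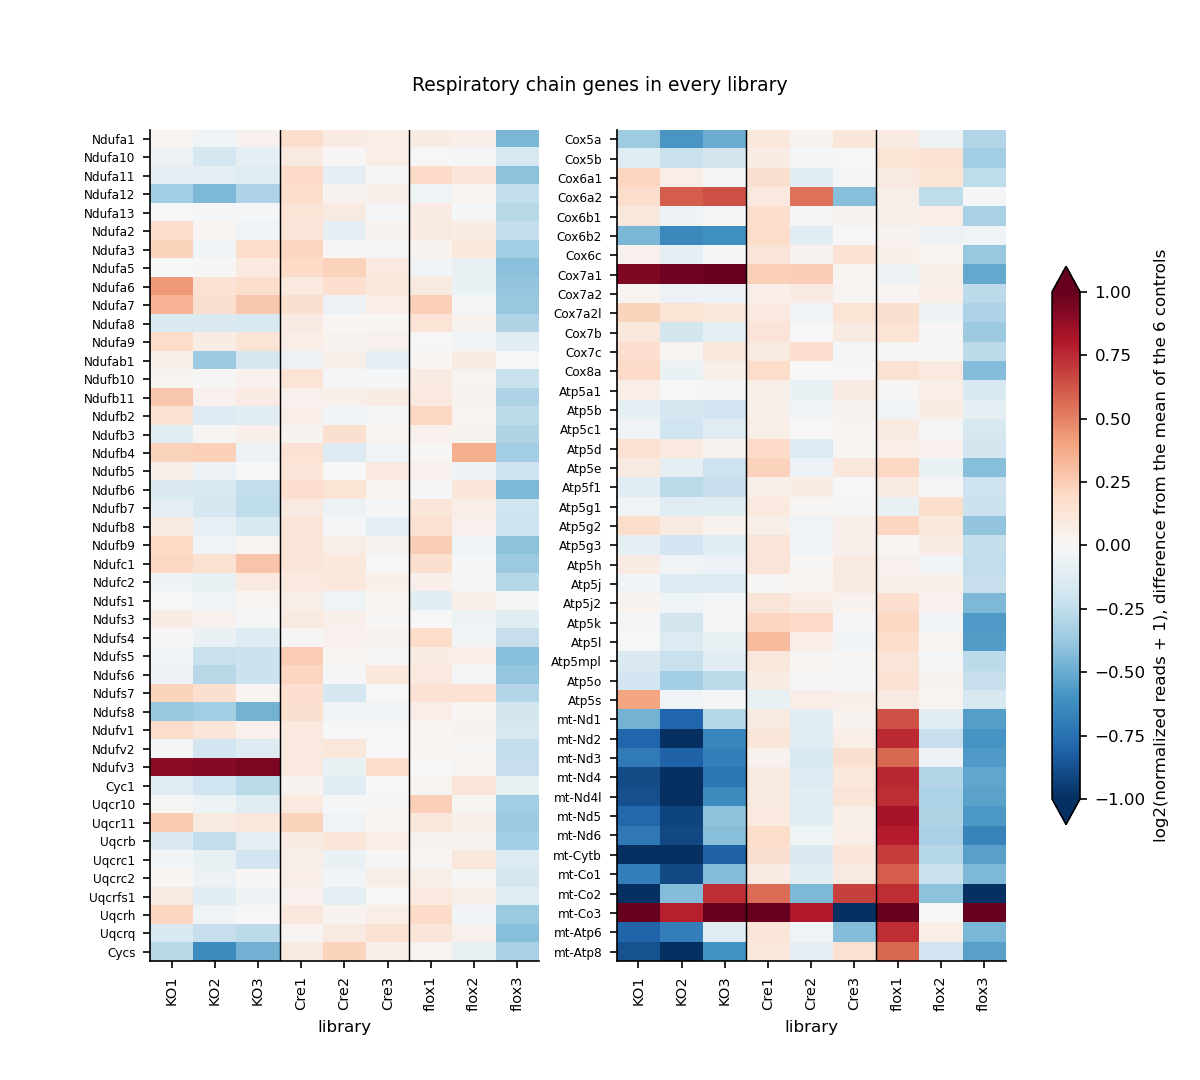
Measured members (rows, 1 not shown, in the order complex I, III, cytochrome c, IV and ATP synthase, nuclear and then mitochondrial) in every library (columns: KO, Vhl knockout; Cre, Cre control; flox, floxed control). Colour is the difference of log2(normalized reads + 1) from the mean of the 6 control libraries, and differences beyond 1 in size share the end colours. Most nuclear rows are pale except in floxed control 3, whereas Ndufv3 and Cox7a1 are dark red and most mitochondrial rows blue in all 3 knockouts.

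The mitochondrial genome has an almost identical copy of several of its genes in the nucleus, on chromosome 1, and with reads of 61 bases this bears on the values of those genes. The following stretch of mt-Co3, encoding cytochrome oxidase subunit III, and of its nuclear copy Gm28437 is shown because a read from either gene would be the same read. It lies inside the coding sequence at chrM:8969-9029 (plus strand) and chr1:24613549-24613609 (minus strand) of GRCm38.
mt-Co3: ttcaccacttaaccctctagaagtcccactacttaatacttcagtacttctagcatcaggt
Gm28437: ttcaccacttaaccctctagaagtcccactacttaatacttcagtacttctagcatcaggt

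The copy of mt-Co3 was identical over all 783 bases compared, as were those of mt-Co2 (Gm28661, 681 bases) and mt-Atp6 (Gm10925, 678 bases). Of all possible 61-base reads of these genes, 99.9% (mt-Co3), 100% (mt-Co2) and 99.5% (mt-Atp6) also matched another annotated transcript. Copies of mt-Nd3 (Gm28438) and mt-Co1 (Gm29216) each differed at a single base of the part aligned, shown in capitals in the following windows, 5′ to 3′. The windows lie at chrM:9459-9519 (plus strand) against chr1:24613059-24613119 (minus strand) and at chrM:6390-6450 (plus strand) against chr1:24616128-24616188 (minus strand) of GRCm38.
mt-Nd3: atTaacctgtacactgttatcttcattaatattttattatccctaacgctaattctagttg
Gm28438: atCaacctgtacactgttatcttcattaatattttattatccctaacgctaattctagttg
mt-Co1: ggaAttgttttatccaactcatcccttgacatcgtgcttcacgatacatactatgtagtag
Gm29216: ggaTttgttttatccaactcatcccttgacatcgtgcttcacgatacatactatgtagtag

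In the deposited values the copies held most of the reads of the identical genes. Of the summed reads of gene and copy, the copy held 97.6% to 99.4% over the 9 libraries for mt-Co2, 94.1% to 99.998% for mt-Co3 and 83.5% to 92.2% for mt-Atp6. It held 45.7% to 65.1% for mt-Nd3 and 10.2% to 13.4% for mt-Co1. Copies of mt-Nd4 (Gm28439) and mt-Nd4l (Gm10222) match 61.9% and 98.7% of the 61-base reads of those genes and were not analysed here. Below, the values of these 5 genes, the mitochondrial counts and the shares of reads are given as deposited and with the reads of the 5 measured copies added to their genes, an alternative chosen after seeing the data. Values with a library left out are as deposited.

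**Figure D2:**
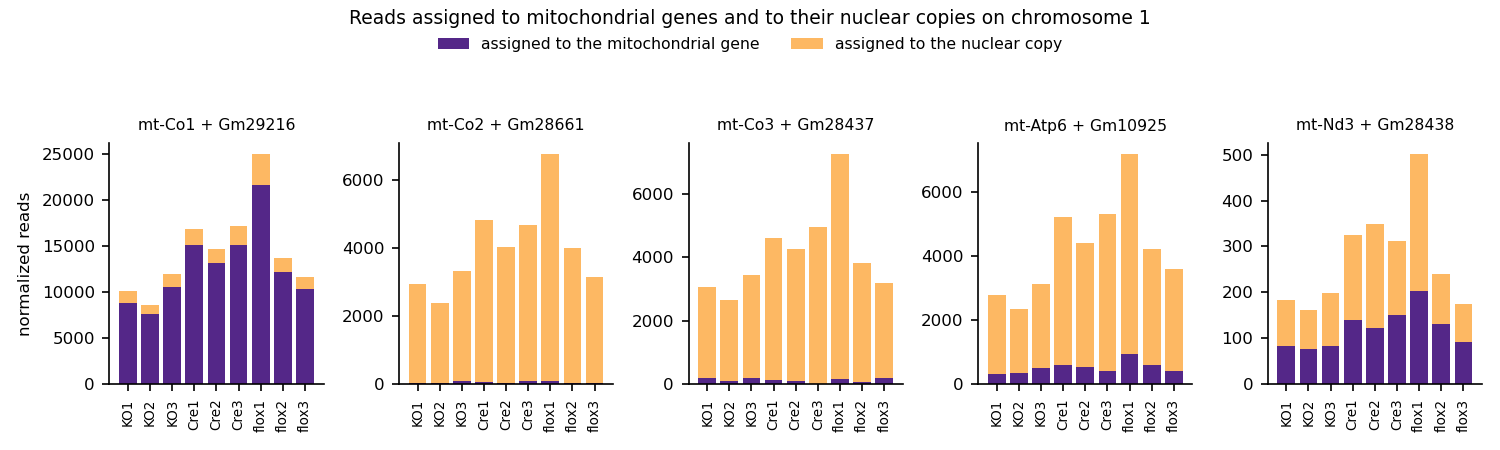
Normalized reads (linear axis from 0) assigned to each of 5 mitochondrial genes (purple) and to its nuclear copy on chromosome 1 (orange) in each library (KO, Vhl knockout; Cre, Cre control; flox, floxed control). For mt-Co2, mt-Co3 and mt-Atp6 most of each bar is orange, and the full bars are lower in the 3 knockouts than in floxed control 1, floxed control 2 and the 3 Cre controls.

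Against both controls, 7 of the 13 mitochondrially encoded genes fell in Vhl knockouts and 0 rose. The share lower was 53.8%, beside 20.2% of all genes called lower. In contrast, 8 of 76 nuclear genes fell (10.5%) and 2 rose (2.63%, beside 19.7% of all genes called higher). The median log2 fold change was -0.70 for mitochondrial and -0.02 for nuclear genes, against -0.00216 for all genes. The sign of the nuclear median depended on the control. It was 0.04 against floxed controls (43 of 76 above 0) and -0.09 against Cre controls (56 of 76 below 0). Knockouts lay below every control in 6 mitochondrial and 6 nuclear genes (beside 18.5% of all genes) and above every control in 0 mitochondrial and 3 nuclear genes (beside 19.3%). With the copies added, 6 mitochondrial genes lay below every control and 0 above.

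These shares moved with the libraries and the scaling. Without Vhl knockout 2, 2 mitochondrial genes were lower (15.4%, beside 15.8% of all genes), so that the share was no longer above that of all genes. Without floxed control 3, 22 nuclear genes were lower (28.9%) and 2 higher, and 11 mitochondrial genes were lower (84.6%), beside 21.2% of all genes lower and 20.3% higher. Without both floxed control 1 and 3, 17 nuclear genes were lower (22.4%) and 3 higher, and 10 mitochondrial genes were lower (76.9%), beside 18.9% of all genes lower and 18.5% higher. Scaled on the reads outside the mitochondrial genome, 21 nuclear genes were lower (27.6%) and 2 higher, beside 26.3% of all genes lower and 14.7% higher. The share of nuclear genes called lower was thus under that of all genes with every library and the deposited scaling kept. It was above that of all genes under the last 3 settings, while the share called higher was below that of all genes in each.

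Mitochondrial mRNAs made up 1.99%, 1.74% and 2.35% of normalized reads in knockouts, 3.77%, 3.24% and 3.57% in Cre controls and 5.52%, 2.97% and 2.64% in floxed controls. Every knockout was below every control, and the gap was narrowest between knockout 3 and floxed control 3. Knockouts averaged 2.03% ± 0.309 and both controls 3.62% ± 1.02. The difference between the knockout mean and the mean of the control groups was -1.59 percentage points, and -1.22 without both floxed control 1 and 3. With the reads of the nuclear copies added, the shares were 2.95% ± 0.422 in knockouts, 5.06% ± 0.387 in Cre controls and 5.32% ± 2.23 in floxed controls, and the groups still did not overlap.

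Nuclear subunit mRNAs made up 0.577%, 0.547% and 0.536% of normalized reads in knockouts, 0.630%, 0.585% and 0.584% in Cre controls and 0.605%, 0.607% and 0.539% in floxed controls. The knockouts were below every Cre control, and overlapped the floxed controls through floxed control 3. The ratio of mitochondrial to nuclear subunit reads was 3.18 to 4.39 in knockouts and 4.89 to 9.12 in both controls, without overlap. With the copies added it was 4.65 to 6.31 in knockouts and 7.04 to 13.01 in both controls, again without overlap. No test was run on these sums.

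**Figure D3:**
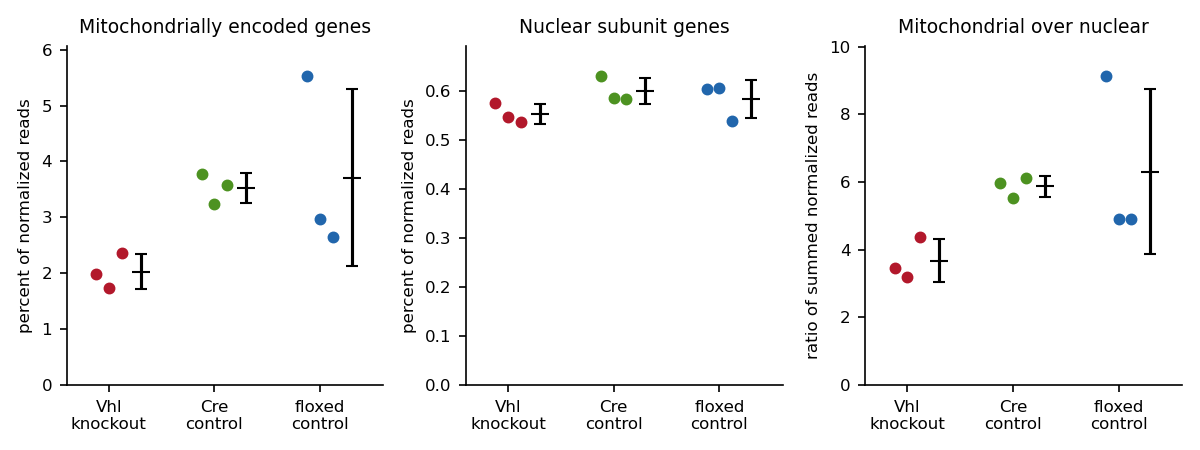
Percent of normalized reads from the 13 mitochondrial genes (left) and the 76 nuclear genes (middle), and their ratio (right), 1 point per library with the mean ± SD (n = 3) beside each group. Axes start at 0. The knockouts lie below all controls in the left and right panels and overlap floxed control 3 in the middle panel.

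Among the 7 mitochondrially encoded complex I subunits, which form the membrane part that pumps protons, 4 fell (57.1%, beside 20.2% of all genes). All 7 had a negative log2 fold change (-0.91 to -0.52). mt-Nd4 had 2618, 2256 and 2961 normalized reads in knockouts, 5187, 4448 and 5237 in Cre controls and 8222, 3991 and 3398 in floxed controls. Its groups did not overlap, and the log2 fold change was -0.91 ± 0.24 (limma, adjusted p = 0.0130). mt-Nd3 had 82.5, 76.5 and 83.9 in knockouts, 139, 121 and 151 in Cre controls and 202, 130.4 and 90.7 in floxed controls. As deposited no knockout reached floxed control 3, the closest control, and the log2 fold change was -0.73 ± 0.20 (limma, adjusted p = 0.0135). mt-Nd3 with Gm28438 had 184, 162 and 199 in knockouts, 325, 348 and 311 in Cre controls and 500.4, 240.4 and 175 in floxed controls. With the copy, knockouts 1 and 3 were above floxed control 3, so the groups overlapped. The log2 fold change was -0.73 ± 0.26 against both controls (limma, adjusted p = 0.0441), and the call against floxed controls was lost (limma, adjusted p = 0.0329 as deposited and 0.139 with the copy). mt-Nd4l and mt-Nd2 fell by 0.87 each on the log2 scale, with limma adjusted p of 0.0148 and 0.0181. These 4 calls were lost without Vhl knockout 2, the library with the lowest values (limma adjusted p = 0.0637 for mt-Nd4, 0.0561 for mt-Nd3, 0.0713 for mt-Nd4l and 0.0885 for mt-Nd2).

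The other 3 complex I genes of the mitochondrial genome did not pass. mt-Nd5 was the highest of them, with 1652, 1510.4 and 2155 normalized reads in knockouts, 3057, 2642 and 2977 in Cre controls and 5058, 2313 and 1911 in floxed controls. Knockout 3 was above floxed control 3, the log2 fold change was -0.70 ± 0.26, and the limma adjusted p was 0.0568. mt-Nd1 had a log2 fold change of -0.52 and mt-Nd6, the only mitochondrial mRNA read from the light strand, one of -0.68.

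mt-Cytb, the cytochrome b of complex III and the only subunit of that complex in the mitochondrial genome, showed the largest fall among the 13 genes. It had 2378, 1978 and 2719 normalized reads in knockouts, 5334, 4297 and 5171 in Cre controls and 7704, 3911 and 3269 in floxed controls. No knockout reached the lowest control, and mt-Cytb fell by 1.03 ± 0.24 on the log2 scale (limma, adjusted p = 0.00679). The call held under all 20 alternative settings, with adjusted p of 0.00074 to 0.0397.

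Of the 3 complex IV subunits in the mitochondrial genome, mt-Co1, which carries the catalytic centre, was called as deposited. It had 8815, 7567 and 10516 normalized reads in knockouts, 15043, 13165 and 15122 in Cre controls and 21558, 12138 and 10356 in floxed controls, so that knockout 3 was above floxed control 3. Its log2 fold change was -0.67 ± 0.22 (limma, adjusted p = 0.0361), and the call was lost under 5 of 20 alternatives. mt-Co2 had 18.9, 34.4 and 78.6 in knockouts, 69.2, 33.9 and 75.6 in Cre controls and 78.5, 34.9 and 21.02 in floxed controls. mt-Co3 had 175, 87.2 and 204 in knockouts, 126, 88.5 and 0.113 in Cre controls and 158, 50.5 and 177 in floxed controls. For both genes the libraries of all 3 genotypes overlapped, and the value of mt-Co3 in Cre control 3 was under the level of 3 reads (0.170).

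Added to their copies, the complex IV genes had other values. mt-Co3 with Gm28437 had 3052, 2644 and 3437 normalized reads in knockouts, 4608, 4274 and 4954 in Cre controls and 7252, 3827 and 3179 in floxed controls. Its log2 fold change, 1.52 ± 1.27 as deposited, was -0.58 ± 0.22 for the sum, with a limma adjusted p of 0.0622. mt-Co2 with Gm28661 averaged 2891 ± 466 in knockouts and 4584 ± 1224 in both controls, and fell by 0.64 ± 0.21 (limma, adjusted p = 0.0358). mt-Co1 with Gm29216 fell by 0.66 ± 0.23 (limma, adjusted p = 0.0466).

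Of the ATP synthase subunits in the mitochondrial genome, mt-Atp8 fell. It had 638, 547 and 764 normalized reads in knockouts, 1254, 1091 and 1297 in Cre controls and 1734, 1019 and 802 in floxed controls. The groups did not overlap, the log2 fold change was -0.86 ± 0.21 (limma, adjusted p = 0.00847), and the call held under all 20 alternatives. mt-Atp6, which with the ring of c subunits forms the proton path, averaged 393 ± 105 in knockouts and 582 ± 192 in both controls as deposited (limma, adjusted p = 0.109). With its copy it averaged 2742 ± 387 in knockouts and 4995 ± 1247 in both controls, and fell by 0.84 ± 0.20 (limma, adjusted p = 0.00727).

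With the copies added, 9 of the 13 genes fell against both controls, and the log2 fold changes of all 13 lay between -1.03 and -0.52. In the same fit, 2421 of all 11998 genes were called lower. The 4 that did not pass were mt-Nd1, mt-Nd5, mt-Nd6 and mt-Co3. Per kilobase of exon, the highest level was that of mt-Co1 with its copy, at 6627 normalized reads in knockouts, 10500 in Cre controls and 10815 in floxed controls. The lowest was that of mt-Nd3 with its copy, at 522 in knockouts, 943 in Cre controls and 877 in floxed controls. By the mean over all libraries, the highest nuclear members per kilobase were Atp5a1, at 196 in knockouts, 197 in Cre controls and 190.2 in floxed controls, and Atp5b, at 173 in knockouts, 194 in Cre controls and 190.05 in floxed controls. In knockouts Cox6a1 was above Atp5b, at 184.

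Of the 36 nuclear complex I genes, 2 fell (5.56%, beside 20.2% of all genes) and 1 rose (2.78%, beside 19.7%). The other 33 did not pass, and the median log2 fold change of the 36 was -0.00389. Ndufv3, a small accessory subunit of the NADH-oxidising arm, rose. It had 68.8, 69.2 and 70.6 normalized reads in knockouts, 38.9, 34.6 and 41.3 in Cre controls and 36.3, 37.0 and 30.8 in floxed controls. Knockouts lay close together and above every control. The mean was 1.91 times that of both controls, with a log2 fold change of 0.92 ± 0.07 (limma, adjusted p = 8.47e-06), and the call held under all 20 alternatives.

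Ndufs8, which binds iron-sulfur clusters in the arm that reaches into the matrix, had 29.9, 30.7 and 28.0 normalized reads in knockouts, 43.9, 38.3 and 38.6 in Cre controls and 41.2, 39.8 and 34.4 in floxed controls. Ndufa12, an accessory subunit of the same arm, had 17.1, 15.8 and 17.6 in knockouts, 25.0, 22.5 and 22.8 in Cre controls and 21.3, 22.5 and 18.4 in floxed controls. In neither gene did the groups overlap. Ndufs8 fell by 0.40 ± 0.07 (limma, adjusted p = 0.00204) and Ndufa12 by 0.37 ± 0.08 (limma, adjusted p = 0.00410), and both calls held under all 20 alternatives. Of the 61-base reads of Ndufa12, 16.3% also matched the pseudogene Gm15920, which was not measured.

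Among the abundant complex I genes that did not pass, Ndufs1, a core subunit that carries iron-sulfur clusters, averaged 90.5 ± 1.93 in knockouts and 90.7 ± 3.96 in both controls. Of the 33 genes that did not pass, 31 had a log2 fold change within 0.25 of 0, and the full range was -0.18 (Ndufs6) to 0.26 (Ndufa7).

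Of the 9 nuclear complex III genes, 1 fell (11.1%, beside 20.2% of all genes) and 0 rose (beside 19.7%). Cyc1, the cytochrome c1 that hands electrons to cytochrome c, had 67.1, 63.3 and 60.3 normalized reads in knockouts, 74.6, 67.8 and 72.6 in Cre controls and 74.4, 79.2 and 69.0 in floxed controls. The highest knockout was just under the lowest control, and Cyc1 fell by 0.19 ± 0.06 (limma, adjusted p = 0.0286), a call that was lost under 5 of 20 alternatives. The core proteins did not pass: Uqcrc1 averaged 153 ± 9.01 in knockouts and 164 ± 10.1 in both controls, and Uqcrc2 averaged 138 ± 4.34 in knockouts and 139 ± 8.51 in both controls. The log2 fold changes of the 8 others ran between -0.22 (Uqcrq) and 0.16 (Uqcr11).

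Cycs, the somatic cytochrome c, which also triggers apoptosis when released from mitochondria, had 22.8, 17.7 and 19.8 normalized reads in knockouts, 29.9, 32.8 and 29.0 in Cre controls and 28.5, 26.5 and 22.1 in floxed controls. Knockout 1 lay above floxed control 3, and all other knockout values were below all controls. Cycs fell by 0.46 ± 0.10 (limma, adjusted p = 0.00432) and the call held under all 20 alternatives. Of the 61-base reads of Cycs, 24.9% also matched other transcripts, mainly of Gm10053, so part of its value is uncertain.

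Complex IV had 2 of 13 nuclear genes lower (15.4%, beside 20.2% of all genes), 1 higher (7.69%, beside 19.7%) and 10 that did not pass. Cox5a, a core-associated subunit, had 99.1, 84.5 and 89.6 normalized reads in knockouts, 137, 129.8 and 138 in Cre controls and 134, 123 and 103 in floxed controls. The groups did not overlap, and Cox5a fell by 0.48 ± 0.08 (limma, adjusted p = 0.00121). Cox6b2, the paralog of Cox6b1 known from testis, had 12.6, 10.9 and 11.2 in knockouts, 20.1, 16.3 and 17.6 in Cre controls and 18.05, 16.9 and 17.1 in floxed controls. Its groups did not overlap either, and it fell by 0.57 ± 0.08 (limma, adjusted p = 0.000411). Cox6b1 averaged 108 ± 6.45 in knockouts and 108 ± 12.0 in both controls and did not pass.

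Cox7a1, the heart and skeletal muscle form of subunit 7a, rose, at a low level. It had 3.56, 3.68 and 3.84 normalized reads in knockouts, 1.81, 1.83 and 1.41 in Cre controls and 1.305, 1.48 and 0.673 in floxed controls. All knockouts were above all controls, with a mean 2.602 times that of both controls and a log2 fold change of 0.98 ± 0.15 (limma, adjusted p = 0.000554). The calls of Cox5a, Cox6b2 and Cox7a1 held under all 20 alternatives for the first pair and all 19 that could be run for Cox7a1. No marker of cardiac or skeletal muscle was measured (0 of 6).

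The other paralogs of complex IV did not pass. Cox7a2, the form of most tissues, averaged 49.1 ± 1.73 in knockouts and 50.4 ± 4.36 in both controls. Cox7a2l, which encodes a related protein, averaged 167 ± 6.95 in knockouts and 150.4 ± 17.2 in both controls. Cox6a2, the muscle form of subunit 6a, averaged 1.52 ± 0.427 in knockouts and 0.840 ± 0.443 in both controls, with a log2 fold change of 0.47 ± 0.22 (limma, adjusted p = 0.113), while Cox6a1 averaged 129 ± 10.3 in knockouts and 122 ± 13.3 in both controls. Cox8a averaged 106 ± 9.60 in knockouts and 102 ± 14.6 in both controls.

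Of the 17 nuclear ATP synthase genes, 2 fell (11.8%, beside 20.2% of all genes) and 0 rose (beside 19.7%). Atp5o, the protein at the top of the peripheral stalk that confers oligomycin sensitivity, had 69.5, 62.7 and 65.7 normalized reads in knockouts, 83.9, 78.8 and 79.0 in Cre controls and 88.0, 81.3 and 67.6 in floxed controls. Atp5f1, subunit b of the same stalk, had 178, 159 and 164 in knockouts, 199, 203 and 192 in Cre controls and 205, 191 and 166 in floxed controls. In both genes, floxed control 3 was the control that overlapped the knockouts. Atp5o fell by 0.27 ± 0.08 (limma, adjusted p = 0.0221) and Atp5f1 by 0.20 ± 0.07 (limma, adjusted p = 0.0404). The calls were lost under 2 and 8 of 20 alternatives. Of the 61-base reads of Atp5o, 37.8% also matched transcripts of other gene identifiers on either strand, none of them measured. For Atp5f1 the share matching other transcripts was 12.4%.

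The catalytic core did not pass. Atp5b, the beta subunit, averaged 733 ± 23.8 in knockouts and 814 ± 36.3 in both controls, with no overlap and a log2 fold change of -0.15 ± 0.06 (limma, adjusted p = 0.0601), and it was called lower without floxed control 3 (limma, adjusted p = 0.0299). Atp5a1, the alpha subunit, averaged 614 ± 17.4 in knockouts and 608 ± 39.1 in both controls. The c subunit, the same mature protein from separate genes, averaged 51.9 ± 1.58 in knockouts and 55.7 ± 5.24 in both controls for Atp5g1, 105.6 ± 5.22 in knockouts and 99.2 ± 13.6 in both controls for Atp5g2, and 159 ± 5.44 in knockouts and 175 ± 15.0 in both controls for Atp5g3. Of the 61-base reads of Atp5g2, 37.2% also matched other transcripts, mainly the pseudogene Gm10175.

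**Figure D4:**
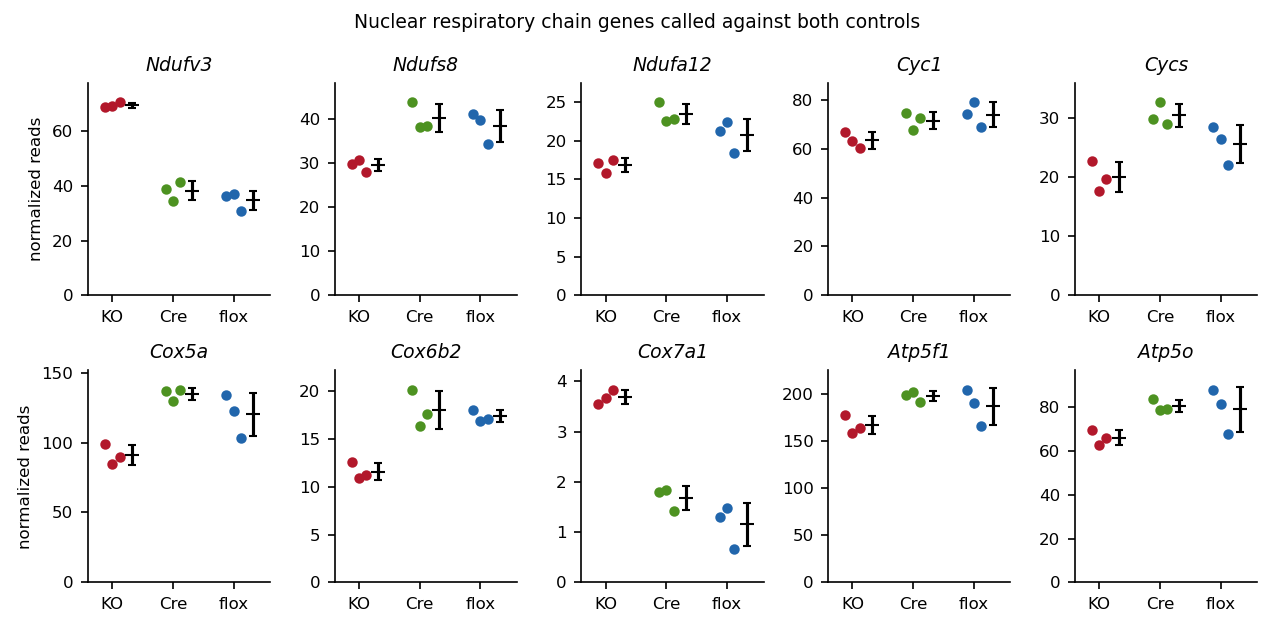
Normalized reads (linear axes from 0) of the 10 nuclear genes called against both controls, 1 point per library (KO, Vhl knockout; Cre, Cre control; flox, floxed control) with the mean ± SD (n = 3) beside each group. Ndufv3 and Cox7a1 are higher in every knockout than in any control, and in Cycs, Atp5f1 and Atp5o floxed control 3 reaches down to the knockouts.

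**Figure D5:**
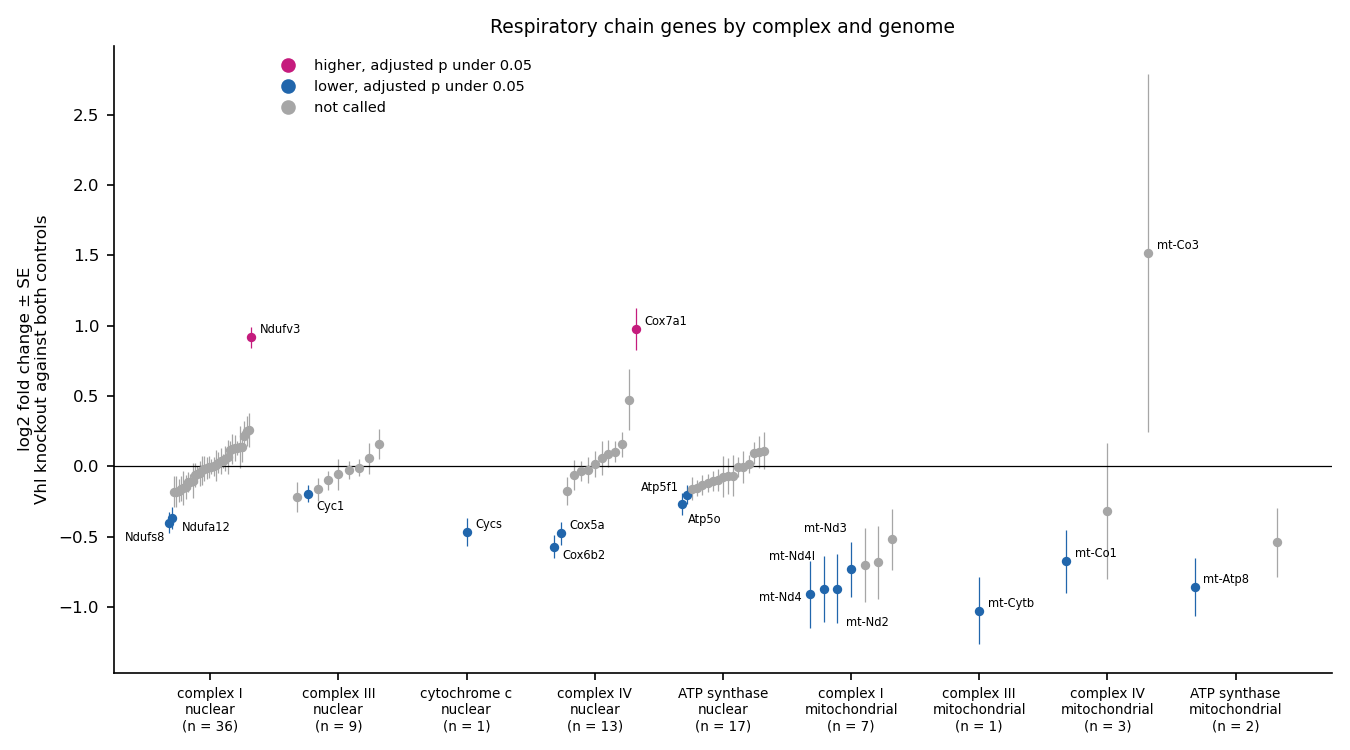
Log2 fold change ± SE of each member, Vhl knockout against both controls, by complex and genome, sorted within each complex. Pink and blue mark genes called higher and lower at an adjusted p under 0.05, and grey marks genes not called. The nuclear genes centre on 0, and 12 of 13 mitochondrial genes lie below 0, with mt-Co3 as the exception before its copy is added.

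The comparisons with each control share the knockout libraries. Against floxed controls, 6 nuclear genes were lower and 4 higher (beside 16.8% and 17.5% of all genes), and 6 of 13 mitochondrial genes were lower. The genes called here and not against both controls were Ndufa9 and Ndufa6, accessory subunits of complex I. Ndufa9 had 68.3, 63.4 and 66.0 in knockouts and 60.0, 58.8 and 55.5 in floxed controls. Ndufa6 had 43.7, 35.8 and 36.6 in knockouts and 34.4, 30.8 and 24.3 in floxed controls. Their log2 fold changes were 0.18 ± 0.06 and 0.37 ± 0.12 (limma, adjusted p = 0.0315 and 0.0370). These calls were lost under 10 (Ndufa9) and 11 (Ndufa6) of 21 alternatives, among them without floxed control 3 (limma, adjusted p = 0.0771 and 0.0902). Against Cre controls, 7 nuclear genes were lower and 2 higher (beside 17.7% and 16.3% of all genes), and 6 mitochondrial genes were lower. With the copies added, the mitochondrial counts were 6 against floxed and 7 against Cre controls. As deposited, both mitochondrial counts were 0 without Vhl knockout 2, and without Vhl knockout 1 they were 1 against floxed and 2 against Cre controls. The count against floxed controls was 2 without Vhl knockout 3 and 11 without floxed control 3, and the count against Cre controls was 2 without Cre control 1, 1 without Cre control 3 and 10 without floxed control 1. Over all genes, the calls lower in these settings ranged from 1488 to 1947 against floxed and from 1495 to 2267 against Cre controls. The nuclear count without floxed control 3 was 16 against floxed and 19 against Cre controls. In that setting, 1947 of all 12003 genes were called lower and 1923 higher against floxed controls, and 2297 and 2139 against Cre controls. Against floxed controls the nuclear count was 6 without Vhl knockout 2 and 5 without Vhl knockout 3, Cre control 3 or floxed control 2. In those settings, 1488 to 1818 of all genes were called lower and 1610 to 1933 higher.

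Ndufv3, Cox7a1, Cox6b2, Cox5a, Cycs, Ndufs8 and Ndufa12 passed with the same sign against each of the controls. Against floxed and Cre controls the log2 fold change was 0.99 and 0.85 for Ndufv3, 1.14 and 0.81 for Cox7a1, -0.55 and -0.60 for Cox6b2, -0.39 and -0.56 for Cox5a, -0.34 and -0.59 for Cycs, -0.37 and -0.43 for Ndufs8, and -0.28 and -0.45 for Ndufa12. Against floxed controls, the calls of Cycs and Ndufa12 were lost under 10 and 7 of 21 alternatives, with limma adjusted p of up to 0.150 and 0.118, and those of the other 5 genes under 0.

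Between Cre and floxed controls, 0 nuclear and 0 mitochondrial members were called by limma, edgeR or DESeq2, beside 0.167% of all genes. At an unadjusted p under 0.05 there was 1 nuclear gene, Ndufa5, an accessory subunit of complex I, and 0 mitochondrial genes. Ndufa5 had 18.5, 18.9 and 17.2 normalized reads in Cre controls and 15.7, 15.1 and 11.7 in floxed controls (limma, adjusted p = 0.538). Nuclear members had a median log2 fold change of 0.11 in Cre against floxed controls, and 72 of 76 were above 0. The low values of floxed control 3 stand in the same direction, and their part in this was not tested.

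Other genes of the pathway were counted from lists chosen with earlier results of these data known. Every list count stands beside 20.2% of all genes called lower and 19.7% called higher. Of complex II, which feeds electrons from succinate and is wholly nuclear, 1 of 4 genes was lower and 0 higher. Sdhb, its iron-sulfur subunit, fell by 0.39 ± 0.08 (limma, adjusted p = 0.00272), with 69.6 ± 4.66 in knockouts and 91.6 ± 8.58 in both controls. Of 6 measured subunits outside the symbol rule, 2 were lower and 1 higher. The complex IV subunit gene Ndufa4 averaged 23.4 ± 1.54 in knockouts and 76.8 ± 7.77 in both controls, and Ndufa4l2, its HIF-induced relative, 212 ± 8.56 in knockouts and 0.191 ± 0.157 in both controls.

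Of 48 assembly factors, 7 were lower and 8 higher (beside 20.2% and 19.7% of all genes). Higd1a, a HIF target that associates with complex IV, averaged 37.2 ± 0.885 in knockouts and 11.6 ± 1.27 in both controls, and rose by 1.61 ± 0.08 (limma, adjusted p = 3.24e-07). Surf1, which helps to assemble complex IV, rose by 0.48 ± 0.08 (limma, adjusted p = 0.000836). Of 17 genes of mitochondrial DNA maintenance and transcription, 1 was lower and 4 higher. Tk2 and Rrm2b, which supply nucleotides for mitochondrial DNA, rose by 0.32 and 0.27 (limma, adjusted p = 0.00525 and 0.00734), and Tfb2m, a transcription factor of the mitochondrial polymerase, fell by 0.20 (limma, adjusted p = 0.0197).

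Of 19 genes that process, stabilise or degrade mitochondrial RNA, 3 were lower and 1 higher (beside 20.2% and 19.7% of all genes). Ptcd2, a pentatricopeptide protein known in mouse for processing the transcript of mt-Cytb, averaged 22.4 ± 1.31 in knockouts and 28.4 ± 2.09 in both controls, and fell by 0.32 ± 0.08 (limma, adjusted p = 0.00719). Rexo2, an oligoribonuclease, fell by 0.24 ± 0.06 (limma, adjusted p = 0.00757). Of 13 nuclear regulators of mitochondrial genes, 2 were lower and 2 higher. Mxi1, a HIF target that opposes Myc, averaged 183 ± 5.8 in knockouts and 75.2 ± 5.84 in both controls, and rose by 1.27 ± 0.06 (limma, adjusted p = 2.7e-07), and Nfe2l2 fell by 0.58 ± 0.10 (limma, adjusted p = 0.00106).

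Upstream sequence was read for the nuclear members from RefSeq (GRCm38.p6), as the 250 bases before the transcription start. It was found for 64 of the 76. The core letters of the hypoxia response element bound by HIF were searched in both of their forms, ACGTG and GCGTG, on both strands, and CACGTG counts on each strand. Either core was found in 51.6% of the 64 members and 41.5% of the 27025 genes with such a window in the RefSeq table, whether or not they were measured here. The first was found in 21.9% of members and 18.5% of genes, and the second in 39.1% of members and 30.9% of genes. The ETS sequence CCGGAAG was found in 17.2% of members and 7.83% of genes, and the YY1 sequence AAGATGGCG in 1.56% of members and 0.710% of genes. An NRF1 sequence was also searched, and was found in 6.25% of members (4 of 64) and 0.877% of genes. These are matches of letters and not tested binding sites.

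The upstream sequences of both genes that rose and of a pair that fell are shown 5′ to 3′, with matches to either HIF core, on either strand, in capitals. They lie at chr17:31519865-31520114 (plus strand) for Ndufv3, chr7:30183921-30184170 (plus strand) for Cox7a1, chr9:57520982-57521231 (plus strand) for Cox5a and chr6:50566570-50566819 (minus strand) for Cycs.
Ndufv3: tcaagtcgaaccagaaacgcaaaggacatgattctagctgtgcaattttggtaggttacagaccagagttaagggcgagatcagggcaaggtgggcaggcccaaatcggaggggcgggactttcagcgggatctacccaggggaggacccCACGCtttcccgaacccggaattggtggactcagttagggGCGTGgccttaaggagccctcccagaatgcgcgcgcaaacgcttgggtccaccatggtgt
Cox7a1: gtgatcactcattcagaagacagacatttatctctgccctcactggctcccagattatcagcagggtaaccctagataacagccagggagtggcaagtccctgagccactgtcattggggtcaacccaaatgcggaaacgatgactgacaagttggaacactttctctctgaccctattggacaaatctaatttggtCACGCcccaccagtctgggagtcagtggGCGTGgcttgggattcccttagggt
Cox5a: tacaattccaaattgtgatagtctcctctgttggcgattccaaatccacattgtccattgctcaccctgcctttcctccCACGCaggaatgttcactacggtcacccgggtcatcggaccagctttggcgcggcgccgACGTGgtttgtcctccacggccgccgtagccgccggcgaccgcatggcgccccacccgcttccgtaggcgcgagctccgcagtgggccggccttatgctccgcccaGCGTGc
Cycs: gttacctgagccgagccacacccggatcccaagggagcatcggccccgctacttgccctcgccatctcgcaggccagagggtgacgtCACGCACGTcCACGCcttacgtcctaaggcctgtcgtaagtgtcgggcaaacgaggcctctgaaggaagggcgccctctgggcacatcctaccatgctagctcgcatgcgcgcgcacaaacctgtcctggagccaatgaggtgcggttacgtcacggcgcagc

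Matches began 100 and 60 bases upstream of the start in Ndufv3, 53 and 25 bases in Cox7a1, 171, 112 and 6 bases in Cox5a, and 163, 159 and 153 bases in Cycs. Genes that rose and genes that fell both held them. None of these cores was found in the windows of Cox6b2, Ndufa12 and Atp5o, and Cyc1 had no entry.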

How the data were processed

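Poly(A) RNA of 9 libraries was used, 3 pools for each of 3 genotypes taken from the genotype label. Tools named in the submitters' processing notes are RSEM 1.2.3, cutadapt 1.3 and CASAVA 1.8.2, with the GRCm38 build, whereas annotation and strand setting are not given there. The authors deposited a table of 12003 gene identifiers whose signal is a whole number of reads times 1 factor per library. Dividing by that factor gave whole reads for 100% of values (tolerance 0.01 read), and the scaled value is called normalized reads. The table had been filtered, since every gene reached at least 0.962 normalized reads in at least 3 libraries, so lower genes are not analysed here. This scaling hides any shift shared by all genes. All sample columns were mapped and 0 were left out.

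GENCODE release M21 named 11935 identifiers and left 68 without a symbol. The members and gene lists were chosen with earlier results of these data known. Members called against both controls were named, with values in every library for up to 4 per complex, together with the most abundant that did not pass, isoform pairs, and up to 2 called genes per pathway list. Values of 1 member are not reported here, and it stays in the fits, counts and sums. On log2(value + 1), which understates changes of low genes, each gene was fitted by a mean per genotype over all libraries, with limma 3.58.1 (R 4.3.3, intensity trend, two-sided, Benjamini-Hochberg). The fit was tested on simulated data. The planned test assumed scaled values and was kept. Counts recovered from the deposited values were tested with edgeR 4.0.16 and DESeq2 1.42.0 as alternatives. Other alternatives changed the pseudocount to 0.25, the filter on low values (mean of at least 5), the scaling, the trend, the groups in the fit and the libraries left out. Reads matching several genes were found by comparing 61-base stretches of all transcripts. A library's 3-read floor was 0.120 to 0.170 normalized reads, for counting error only. No library duplicated another of its group within counting noise. Labels do not say whether mice of different pools were littermates, and p-values measure the spread between pools.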

Additional observations from a re-analysis of the deposited data

How the results depend on the processing

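No called member changed direction, and no member was called with the opposite sign. Members that were not called changed sign 409 times over the alternatives, among them mt-Co3, which went to -0.58 with its copy added, against 1.52 as deposited (-0.60 against 2.66 relative to Cre controls). Of the alternatives for each member and comparison, 7062 stayed on the same side of the threshold, 174 passed it newly and 139 lost it. The nuclear count against both controls (10) was 18 without a normalization factor, 23 when scaled on reads outside the mitochondrial genome (21 lower, 2 higher), and 20 without both floxed control 1 and 3, an alternative chosen after seeing the data. Leaving out 1 library gave 7 (without Vhl knockout 2 or 3) to 24 (without floxed control 3), and without floxed control 1 the split was 7 lower and 6 higher. The mitochondrial count (7) ran from 2 (without Vhl knockout 2) to 11 (without floxed control 3) with 1 library left out. Scaling outside the mitochondrial genome shifted the median of all genes to -0.0706 and their calls to 3161 lower and 1759 higher, against 2420 and 2361. Over all genes, 2838 were called lower and 1925 higher without a normalization factor, and 2274 and 2222 without both floxed control 1 and 3. These were 1895 and 1853 without Vhl knockout 2, and 1821 and 1827 without Vhl knockout 3. They were 2539 and 2435 without floxed control 3, and 2415 and 2407 without floxed control 1. Against floxed controls, the nuclear count (10) was 6 without the trend, 5 with only the groups compared, and 5 to 16 with 1 library left out, and the mitochondrial count (6) was 3, 1 and 0 to 11. Against Cre controls, the nuclear count (9) was 17 without a factor, 19 with scaling outside the mitochondrial genome, 18 with only the groups compared, 18 without both floxed controls, and 7 to 19 with 1 library left out. The mitochondrial count (6) was 10 with only the groups compared, 10 without both floxed controls, and 0 to 10. Cre against floxed controls gave 0 members throughout. Over all genes, calls against floxed controls were 1911 lower and 1983 higher without the trend, and 1815 and 1919 with only the groups compared. Against Cre controls they were 2313 and 1713 without a factor, and 2589 and 1646 with scaling outside the mitochondrial genome. They were 2341 and 2179 with only the groups compared, and 2342 and 2175 without both floxed controls. The mitochondrial share differed by -1.59 points (-1.858 to -1.138 with 1 library left out) and the nuclear share by -0.0385 (-0.0502 to -0.0301). The causes were not tested.

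Same-numbered libraries correlated between -0.0817 and 0.575, over 0.1 in 5 of 9 pairs, and 3 of 9 libraries were closest to their own number in both other groups. These 3 were the replicate 1 libraries of each genotype, which correlated at 0.202 to 0.575 with each other. The other numbers did not pair in this way, so the numbers were not taken to pair the samples. With the replicate block, 10 nuclear and 9 mitochondrial genes were called against both controls, beside 2505 of all genes called lower and 2393 higher. Depth was not limiting for most members, whereas Cox7a1, Cox6a2 and mt-Co3 rest on few reads in some libraries.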

Other observations

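The non-coding RNAs of the mitochondrial genome, which lie outside the set, were also present in these poly(A) libraries. The small ribosomal RNA mt-Rnr1 averaged 68.8 ± 12.2 normalized reads in knockouts and 81.9 ± 29.9 in both controls (SD, n = 3 and 6), with a log2 fold change of -0.18 ± 0.27 and a limma adjusted p of 0.638. The large ribosomal RNA mt-Rnr2 averaged 257 ± 61.3 in knockouts and 392 ± 86.2 in both controls, with a log2 fold change of -0.60 ± 0.22 and a limma adjusted p of 0.0517. Neither passed, and in both the lowest control was floxed control 3, at 42.7 for mt-Rnr1 and 235 for mt-Rnr2. Poly(A) selection limits what these values say about ribosomal RNA.

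The share of mitochondrial mRNA reads taken by mt-Co1 was 43.1% ± 0.158 in knockouts, 40.8% ± 0.487 in Cre controls and 40.8% ± 1.78 in floxed controls as deposited. The knockouts lay between 43.0% and 43.3% and all controls between 38.8% and 42.3%. With the reads of the nuclear copies added to gene and total, the share was 33.6% to 34.2% in knockouts and 31.4% to 32.95% in all controls. This was not particular to mt-Co1. With the copies, its knockout mean was 62.2% of its mean in both controls. The same percentage was higher for mt-Nd1 (68.5%), mt-Co3 (65.0%) and mt-Co2 (63.1%), and lowest for mt-Cytb (47.7%).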
